A study of Homo sapiens with 6 samples.

Results

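The genes described here are YAP1 and WWTR1, which encode the transcriptional coactivators YAP and TAZ, their DNA-binding partner TEAD1, and 7 genes that are known YAP/TAZ targets, some of which also regulate the pathway: CCN1, CCN2, ANKRD1, NUAK2, AMOTL2, LATS2 and AJUBA. They were taken by gene symbol from the array's probe table. All 10 were found, each with 1 row of its own, among 18417 genes with a row of their own. The cells were MDA-MB-231, a cell line derived from a human triple-negative breast carcinoma. They carried a control short hairpin RNA (shRNA), shRNA 162 or shRNA 159. Both numbered hairpins are directed at TIP-1, a protein that is little more than a single PDZ domain and is the product of TAX1BP3. There were 2 separately derived clones for each of the 3 groups, with 1 Affymetrix Human Gene 1.0 ST array per clone (n = 2 per group). Clones of all groups were detached with trypsin, seeded again and kept in culture overnight before RNA was taken.

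YAP and TAZ sit at the end of the Hippo pathway. When its kinases MST1/2 and LATS1/2 are active, YAP and TAZ are phosphorylated, held in the cytoplasm by 14-3-3 and angiomotin proteins, and degraded. When cells spread on a stiff support or the actin cytoskeleton is under tension, the coactivators enter the nucleus and bind TEAD factors at their target genes. Their proteins are controlled largely after translation, so a transcript level does not report their activity. In breast cancer cells the pathway is studied for its part in growth and metastasis. YAP and TAZ both end in a PDZ-binding motif; binding of TIP-1 to either was not measured here.

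The TEAD core motif GGAATG and its reverse complement were searched on both strands of the 250 bases before each annotated transcription start. The set of RefSeq (GRCh38.p14) windows used here held 8 of the 10 genes, with 11 windows in all. It held none for CCN1 and TEAD1, which were therefore not searched. At least 1 match was found upstream of 6 genes: CCN2 with 3, ANKRD1 and NUAK2 with 2 each, and YAP1, AMOTL2 and AJUBA with 1 each, the latter 2 in 1 of their 2 windows. Counted by window, 6 of these 11 held at least 1 match. Of all 35116 windows of that length, 11.9% held at least 1 match, 0.94% at least 2 and 0.083% at least 3. The windows of WWTR1 and LATS2 held none of these letters. The AP-1 motif TGANTCA, found in 6.57% of all windows, was present in the ANKRD1 window alone, 195 bases upstream, and it overlapped no TEAD core match. A match is a description of the sequence, not a shown binding site. The 3 windows with several matches are printed because these genes had 3 different patterns on the arrays: CCN2 was lower with shRNA 162, ANKRD1 passed in no comparison, and NUAK2 was higher with both hairpins. Capitals mark the TEAD core on either strand, and each window reads 5′ to 3′ on the gene's strand, which is the minus strand for all 3 (CCN2 chr6:131951373-131951622, ANKRD1 chr10:90921088-90921337, NUAK2 chr1:205321746-205321995).
CCN2: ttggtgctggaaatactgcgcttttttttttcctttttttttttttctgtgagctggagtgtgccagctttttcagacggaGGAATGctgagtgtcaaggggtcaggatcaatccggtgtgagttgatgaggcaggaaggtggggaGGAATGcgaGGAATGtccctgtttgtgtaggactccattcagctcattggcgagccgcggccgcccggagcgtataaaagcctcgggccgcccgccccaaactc
ANKRD1: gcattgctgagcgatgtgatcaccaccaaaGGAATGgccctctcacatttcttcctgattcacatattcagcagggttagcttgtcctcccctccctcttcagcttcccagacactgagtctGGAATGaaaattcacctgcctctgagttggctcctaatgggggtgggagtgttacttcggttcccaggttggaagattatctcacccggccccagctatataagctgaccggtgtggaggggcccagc
NUAK2: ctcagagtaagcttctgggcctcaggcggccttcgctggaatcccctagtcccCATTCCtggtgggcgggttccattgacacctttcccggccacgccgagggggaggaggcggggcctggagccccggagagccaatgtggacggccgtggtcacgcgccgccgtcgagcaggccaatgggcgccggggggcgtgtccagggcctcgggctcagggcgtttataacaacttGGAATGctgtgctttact
In CCN2 the matches began 169, 104 and 95 bases before the start, all on the sense strand. In ANKRD1 they began 220 and 128 bases before it, both sense. In NUAK2 they began 197 bases (antisense) and 18 bases (sense) before it.

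**Figure D1:**
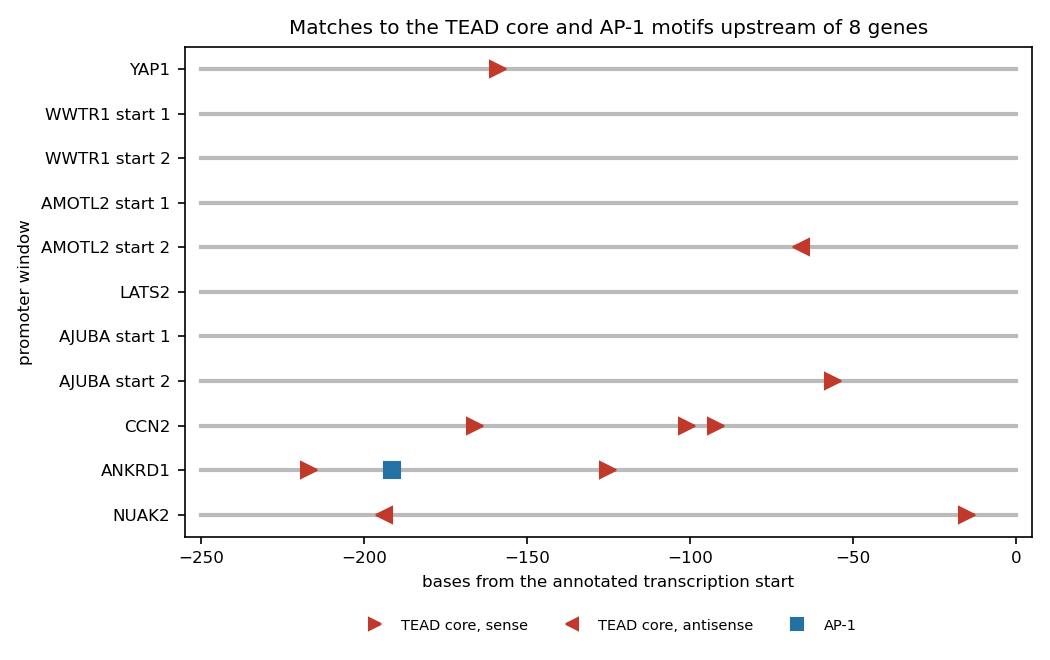
Matches to the TEAD core and AP-1 motifs in the 250 bases before each of the 11 annotated starts of 8 genes; the horizontal axis is the distance in bases from the start and arrowheads give the strand of a match. CCN2 has 3 TEAD core matches, and ANKRD1 and NUAK2 have 2 each.

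The arrays were similar in overall signal, with medians of 7.37 to 7.44 on the log2 scale, and clones of the same group correlated at 0.996 to 0.997 across rows. The targeted gene followed the labels. TAX1BP3 stood at 11.65 and 11.56 in the control clones, 9.85 and 10.01 with shRNA 162, and 10.40 and 10.40 with shRNA 159, which leaves 31.3% and 43.4% of the control signal (limma adjusted p = 4.4e-05 and 0.00034). The exact two-sided permutation p between the 4 knockdown and 2 control arrays was 0.0667, the smallest that 15 splits allow. Its row is also annotated to a readthrough transcript, P2RX5-TAX1BP3. The mesenchymal markers VIM, CD44 and CAV1 lay between 12.78 and 13.41 on all 6 arrays. CDH1 lay between 6.22 and 6.42 and ESR1 between 6.23 and 6.56, near the lower quartile of all rows (6.13). Other markers of the cell line did not follow this split. The keratin genes KRT8 (11.84 to 12.40) and KRT18 (12.22 to 12.38) were almost as bright as the mesenchymal markers. ERBB2 and KRT14 stood well above the lower quartile, with group means of 7.91 to 8.11 and 8.22 to 8.41. EPCAM, an epithelial marker, rose by 0.94 with shRNA 159 (adjusted p = 0.00086), and KRT8, an epithelial keratin, fell by 0.44 with shRNA 162 (adjusted p = 0.027); their part in the results was not tested. Of 15 markers of blood, endothelial, fibroblast and liver cells, 0 passed against control with either hairpin (limma; 1 at an unadjusted p under 0.05 in each comparison), and their mean signal was 6.22 to 6.41 on every array. PDGFRB was higher with shRNA 159 than with shRNA 162 by 0.41 (adjusted p = 0.018). PTPRC, LYZ, DCN, LUM and ALB were below the lower quartile on all 6 arrays. The other 10 were above it on all 6, with COL1A1 the brightest (8.38 to 8.75).

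Tests were two-sided in limma, fitted to all 21214 rows with a gene symbol, and adjusted by Benjamini-Hochberg over these rows; rows with an adjusted p under 0.05 passed. The p-values set a difference between group means only against the spread of clones within groups, which limma moderates with that of all rows. The arrays measure whole cultures, in which fewer cells expressing a gene and less RNA per cell cannot be told apart. A further limit is that each hairpin is represented by 2 clones, so an effect of the hairpin sequence and one of clone selection cannot be told apart. Leaving out an array takes a clone from its group, so a call lost that way can reflect lost power. For a comparison of 2 groups, leaving out a clone of the remaining group gives the same fit as the 4 arrays compared alone. Such alternatives are not separate checks.

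The comparison of shRNA 162 with control asks which of these genes differed in clones with the deeper loss of the TAX1BP3 signal. CCN2, TEAD1 and AJUBA fell and NUAK2 and WWTR1 rose, while YAP1, CCN1, ANKRD1, AMOTL2 and LATS2 did not pass. Thus 5 of 10 genes passed (50%), 2 higher and 3 lower, against 9.52% of all rows (5.88% higher and 3.64% lower). After quantile normalization that split over all rows was 1078 higher and 1074 lower, in place of 1247 and 772. The median change of the 10 was 0.004 on the log2 scale, against 0.021 over all rows. All 10 genes lay above the lower quartile of rows on every array, whereas the share of all rows takes in dimmer ones. With dim rows left out of the fit, 2401 rows passed in place of 2019. Known targets were found on both sides: CCN2 and AJUBA lower, NUAK2 higher.

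With shRNA 159, NUAK2 rose, and it was the 1 gene of 10 that passed (10%), against 2.53% of all rows (1.69% higher). None of the 10 fell by limma, and 0 were lower at an unadjusted p under 0.05 (2 were higher, NUAK2 and WWTR1). The median change was 0.050, against -0.014 over all rows. Both comparisons use the same control clones.

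When both hairpins were averaged (TIP-1 shRNA minus control), NUAK2 rose by 0.59 (SE 0.07, adjusted p = 0.0027), WWTR1 rose by 0.29 (SE 0.06, adjusted p = 0.041) and CCN2 fell by 0.31 (SE 0.07, adjusted p = 0.038). That is 3 of 10 genes (30%), 2 higher and 1 lower, against 4.62% of all rows (3.01% higher and 1.61% lower, 639 and 341 rows, and 565 and 459 after quantile normalization). The WWTR1 call was lost without any 1 of the 6 arrays (adjusted p 0.055 to 0.24). With the 4 shRNA clones taken as 1 group, or the hairpin taken as a random block, 0 of the 10 passed (limma; 3 and 2 at an unadjusted p under 0.05), and NUAK2 had an adjusted p of 0.17 and 0.26. Between the hairpins themselves 4 of the 10 genes differed (40%, against 8.65% of all rows, 4.02% higher and 4.64% lower; 852 and 984 rows, and 1071 and 855 after quantile normalization): CCN2, TEAD1, AJUBA and NUAK2 were each higher with shRNA 159 than with shRNA 162.

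**Figure D2:**
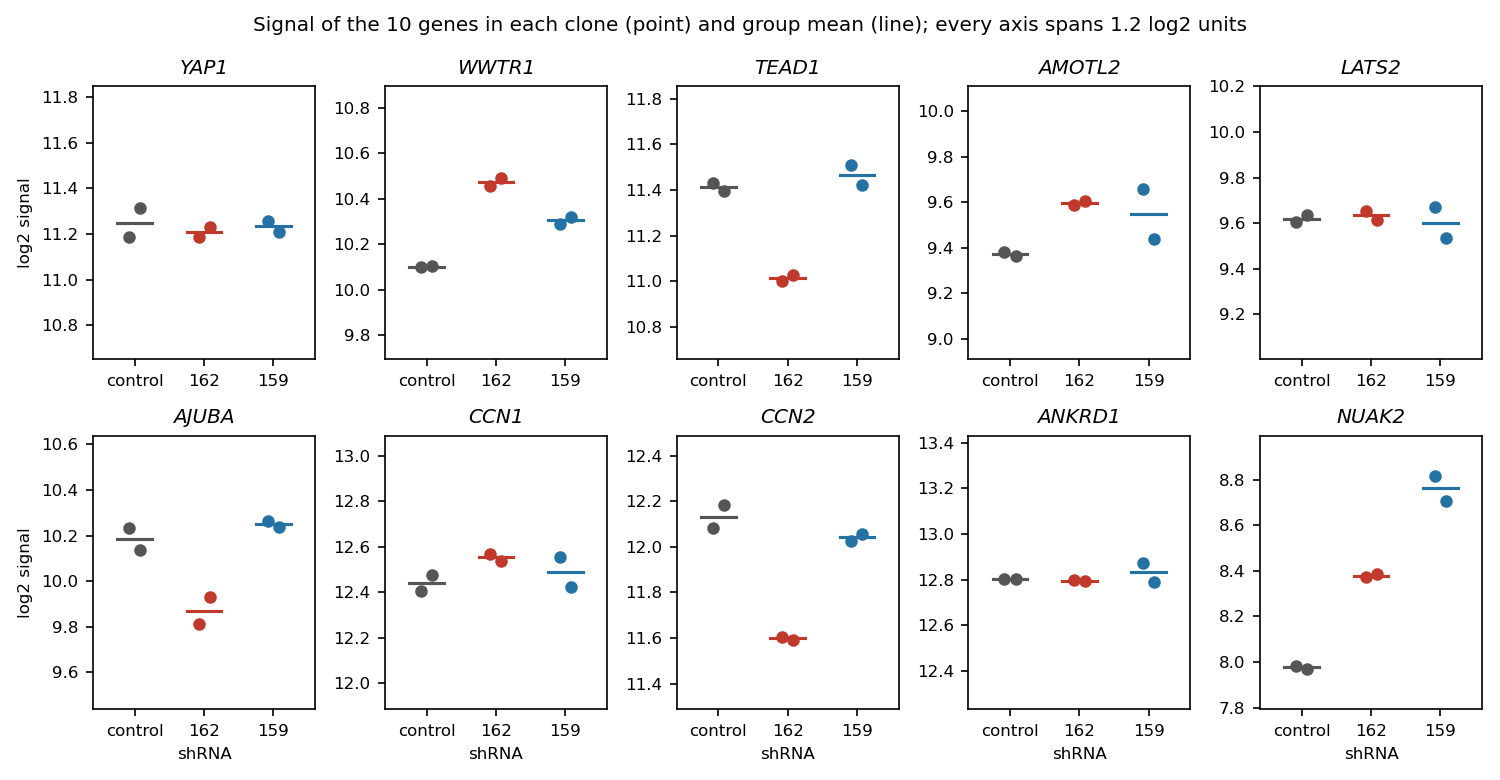
Log2 signal (vertical axis) of each of the 10 genes in the control, shRNA 162 and shRNA 159 clones; points are clones (n = 2 per group), lines are group means, and every panel spans the same range. CCN2, TEAD1 and AJUBA are low in both shRNA 162 clones, NUAK2 steps up from control through shRNA 162 to shRNA 159, and YAP1 and LATS2 overlap across groups.

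Among the coactivators, YAP1 read 11.19 and 11.31 in the control clones, 11.19 and 11.23 with shRNA 162, and 11.26 and 11.21 with shRNA 159. The 3 groups overlapped. The change was -0.04 with shRNA 162 (unadjusted 95% interval -0.22 to 0.14, adjusted p = 0.8) and -0.02 with shRNA 159 (-0.20 to 0.16, adjusted p = 0.95). These unadjusted intervals give the changes compatible with the values, not the smallest change that could pass with 2 clones per group.

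WWTR1, the gene of TAZ, behaved differently in the clones. It read 10.10 and 10.10 in the control clones, 10.46 and 10.49 with shRNA 162, and 10.29 and 10.32 with shRNA 159. All 4 shRNA clones lay above both control clones, and the shRNA 159 clones lay between the others. WWTR1 rose by 0.37 with shRNA 162 (SE 0.07, 1.29-fold, adjusted p = 0.017). With shRNA 159 the change was 0.20 (SE 0.07, interval 0.04 to 0.37), which did not pass (adjusted p = 0.24), and the hairpins did not differ by the test (-0.17, interval -0.33 to -0.003, adjusted p = 0.2). The shRNA 162 call was lost without any 1 of the 4 arrays compared (adjusted p 0.088 to 0.12).

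TEAD1 encodes a factor that carries YAP and TAZ to DNA. It read 11.43 and 11.40 in the control clones, 11.00 and 11.03 with shRNA 162, and 11.51 and 11.42 with shRNA 159. Both shRNA 162 clones lay below the other 4, and the control and shRNA 159 clones overlapped. TEAD1 fell by 0.40 with shRNA 162 (SE 0.08, 75.8% of control, adjusted p = 0.015), and its change with shRNA 159 was 0.05 (interval -0.12 to 0.23, adjusted p = 0.81). The difference between hairpins was 0.45 (SE 0.08, adjusted p = 0.0099). The shRNA 162 call was lost without any 1 of the 4 arrays compared (adjusted p 0.080 to 0.10), and the difference between hairpins without shRNA 162 clone 1 (0.073) or 2 (0.062).

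Of the genes that act on the pathway and are also its targets, AJUBA showed a similar pattern. AJUBA is a LIM-domain protein that binds LATS kinases and restrains them. It read 10.23 and 10.14 in the control clones, 9.81 and 9.93 with shRNA 162, and 10.26 and 10.24 with shRNA 159, so both shRNA 162 clones were the lowest. AJUBA fell by 0.31 with shRNA 162 (SE 0.08, 80.4% of control), just inside the threshold (adjusted p = 0.046), and changed by 0.06 with shRNA 159 (interval -0.12 to 0.25, adjusted p = 0.78). The hairpins differed by 0.38 (SE 0.08, adjusted p = 0.025). Each of these calls was lost without any 1 of the 4 arrays it compared (adjusted p 0.12 to 0.24 for shRNA 162 and 0.064 to 0.17 between hairpins).

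AMOTL2 is an angiomotin-family protein that binds YAP and keeps it out of the nucleus. It read 9.38 and 9.36 in the control clones, 9.59 and 9.61 with shRNA 162, and 9.66 and 9.44 with shRNA 159. All 4 shRNA clones lay above the control clones, but the shRNA 159 clones were far apart. The changes, 0.23 with shRNA 162 (interval 0.02 to 0.43, adjusted p = 0.16) and 0.18 with shRNA 159 (interval -0.03 to 0.38, adjusted p = 0.44), did not pass.

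LATS2 is the kinase that phosphorylates YAP and TAZ, and its own gene responds to them. It read 9.60 and 9.63 in the control clones, 9.66 and 9.61 with shRNA 162, and 9.67 and 9.53 with shRNA 159, and the groups overlapped. Its change was 0.02 with shRNA 162 (interval -0.17 to 0.20, adjusted p = 0.93) and -0.02 with shRNA 159 (interval -0.20 to 0.17, adjusted p = 0.95).

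Among the remaining targets, CCN2 and CCN1 encode related secreted matricellular proteins that bind integrins, and they differed in pattern. CCN2 (connective tissue growth factor) read 12.08 and 12.18 in the control clones, 11.61 and 11.59 with shRNA 162, and 12.03 and 12.06 with shRNA 159. The shRNA 162 clones stood clearly apart below the other 4, while both shRNA 159 clones lay just below the control clones. CCN2 fell by 0.53 with shRNA 162 (SE 0.08, 69.1% of control, adjusted p = 0.0052), and this call held in all 12 alternatives run (adjusted p 4.9e-06 to 0.049). With shRNA 159 the change was -0.09 (interval -0.26 to 0.08, adjusted p = 0.66). The hairpins differed by 0.44 (SE 0.08, adjusted p = 0.011); this call was lost without shRNA 162 clone 1 (0.071) or 2 (0.077). The call for both hairpins averaged was lost without control clone 1 (0.13) or 2 (0.29), shRNA 162 clone 1 (0.10) or 2 (0.12), or shRNA 159 clone 1 (0.069).

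CCN1 (CYR61) read 12.40 and 12.47 in the control clones, 12.57 and 12.54 with shRNA 162, and 12.55 and 12.42 with shRNA 159. Its shRNA 162 clones were above the control clones, the opposite side from CCN2. The change of 0.11 (interval -0.07 to 0.30) did not pass (adjusted p = 0.44), nor did that of 0.05 with shRNA 159 (interval -0.14 to 0.23, adjusted p = 0.84). ANKRD1, an ankyrin repeat protein of muscle and a common reporter of YAP activity, lay between 12.79 and 12.87 on all 6 arrays. Its control clones lay just above its shRNA 162 clones, and the shRNA 159 clones spanned both. Its change was -0.007 with shRNA 162 (interval -0.18 to 0.16, adjusted p = 0.96) and 0.03 with shRNA 159 (interval -0.14 to 0.20, adjusted p = 0.9).

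NUAK2, an AMPK-related kinase that acts on actomyosin tension and is a direct YAP/TAZ target, read 7.98 and 7.97 in the control clones, 8.37 and 8.38 with shRNA 162, and 8.82 and 8.71 with shRNA 159. The 3 groups did not overlap, and shRNA 159 stood highest. The TAX1BP3 signal was lowest with shRNA 162, and a relation between these signals was not tested. NUAK2 rose by 0.40 with shRNA 162 (SE 0.08, 1.32-fold, adjusted p = 0.016) and by 0.79 with shRNA 159 (SE 0.08, 1.72-fold, adjusted p = 0.0017). The hairpins differed by 0.38 (SE 0.08, adjusted p = 0.02). The shRNA 159 call held in all 12 alternatives (adjusted p 2.2e-05 to 0.03). The shRNA 162 call was lost without any 1 of the 4 arrays compared (0.089 to 0.10), and the difference between hairpins without shRNA 162 clone 1 (0.12) or 2 (0.11) or shRNA 159 clone 1 (0.07).

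**Figure D3:**
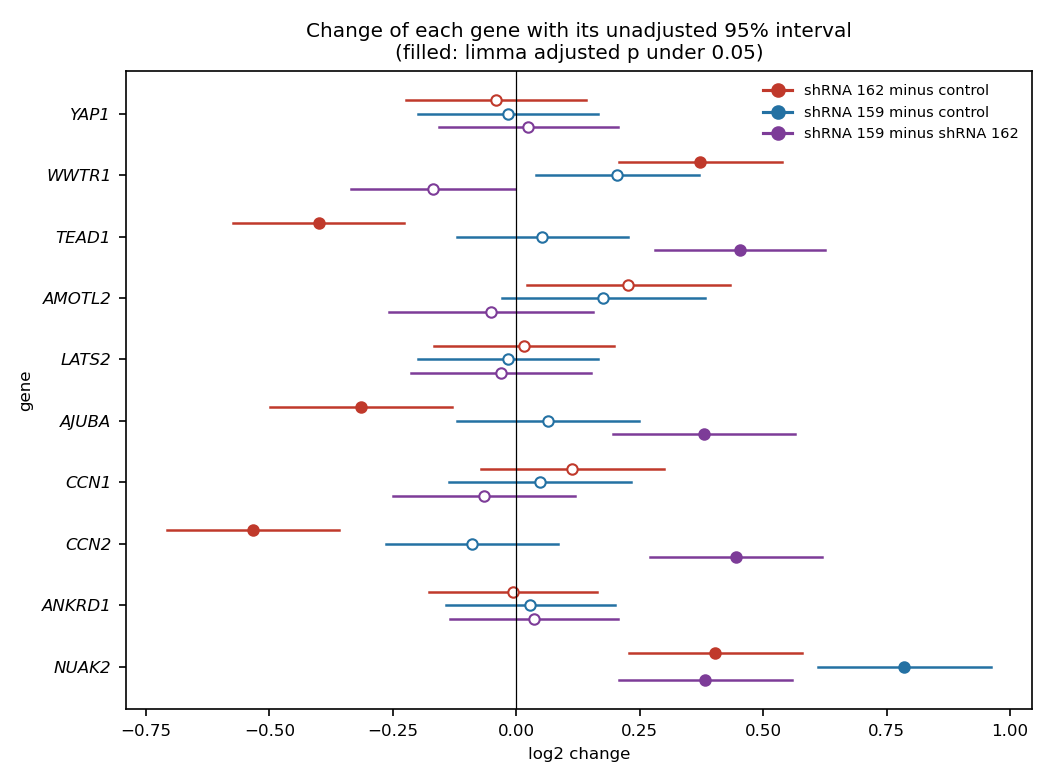
Log2 change (horizontal axis) of each of the 10 genes for shRNA 162 minus control, shRNA 159 minus control and shRNA 159 minus shRNA 162, with unadjusted 95% intervals; filled points passed at an adjusted p under 0.05. CCN2 (-0.53), TEAD1 (-0.40) and AJUBA (-0.31) are lower with shRNA 162, and NUAK2 is higher with both hairpins (0.40 and 0.79).

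The genes lie on 7 chromosomes, and their neighbours were read from the same fit: 3 genes on each side with a row of their own, in RefSeq order. With shRNA 162, 8 of these 60 neighbours passed, 2 higher and 6 lower (13.3%, against 9.52% of all rows), a share near that of all rows. Between hairpins 5 of 60 passed (8.33%, against 8.65%). The neighbours that passed are therefore given as values, from which no shared movement with the genes is read. Next to CCN2, ENPP1 fell by 0.35 (adjusted p = 0.048) and MOXD1 by 0.35 (adjusted p = 0.025) with shRNA 162. Beside TEAD1, PARVA fell by 0.49 (adjusted p = 0.0088) and BTBD10, the third gene on the other side, by 0.43 (adjusted p = 0.027). The values of its 6 neighbours ran from -0.49 to -0.08. Next to WWTR1, COMMD2 rose by 0.38 (adjusted p = 0.032), and PFN2, the third gene on that side, fell by 0.33 (adjusted p = 0.042). Around AJUBA 0 of 6 passed against control with either hairpin. HAUS4 and RBM23 were higher with shRNA 159 than with shRNA 162 (0.38 and 0.52). Most of these calls were lost when an array was left out, which also lowers the power of the fit. ENPP1, MOXD1, COMMD2 and PFN2 lost theirs without any 1 of the 4 arrays compared. PARVA and BTBD10 lost theirs without control clone 1 or either shRNA 162 clone. Between hairpins, HAUS4 lost its call without either shRNA 162 clone or shRNA 159 clone 1, and RBM23 without shRNA 162 clone 1. MOXD1 was also higher with shRNA 159 than with shRNA 162, by 0.66 (adjusted p = 0.0019), a call that held whichever array was left out. Beside the genes that did not pass, DDAH1 next to CCN1 fell by 0.36 (adjusted p = 0.028) and XPO4 near LATS2 rose by 0.43 with shRNA 162, and each lost its call without any 1 of the 4 arrays compared. Around NUAK2 0 of 6 passed in any comparison (limma; 1 at an unadjusted p under 0.05 with shRNA 162, 0 with shRNA 159), and their changes with shRNA 162 lay between -0.18 and 0.23. The part of the neighbourhood in these changes was not tested.

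**Figure D4:**
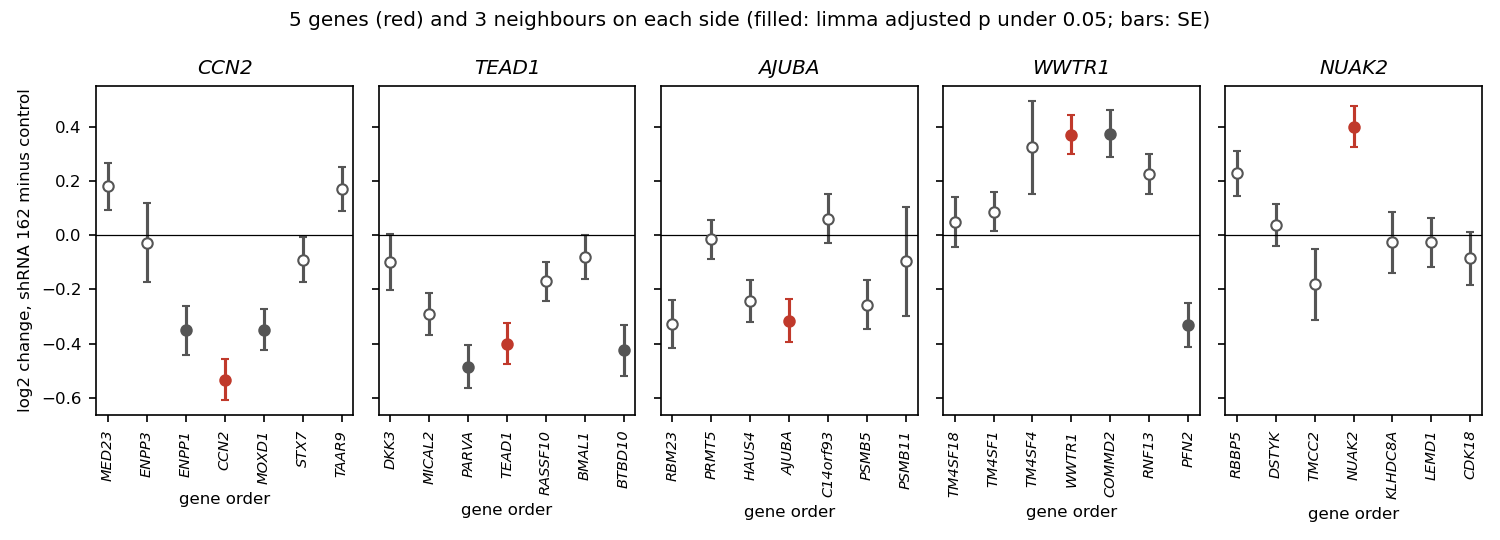
Log2 change with shRNA 162 minus control (vertical axis, bars are SE) of the 5 genes that passed, in red, and of 3 neighbouring genes on each side in chromosome order; filled points passed. ENPP1 and MOXD1 beside CCN2, PARVA and BTBD10 beside TEAD1, and COMMD2 and PFN2 beside WWTR1 passed, and 0 of the 6 neighbours of NUAK2 passed. Over the neighbours of all 10 genes, 8 of 60 passed (13.3%, against 9.52% of all rows).

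The other genes of the pathway were taken from lists of its parts. Of 15 kinases and scaffolds of the Hippo module, LATS1 rose by 0.37 with shRNA 162 (SE 0.08, adjusted p = 0.031), and TAOK1, a kinase upstream of MST1/2, fell by 0.76 with shRNA 159 (SE 0.11, adjusted p = 0.011). The other 13 passed against control with neither hairpin. With each hairpin that is 1 of 15 (6.67%), below the 9.52% of all rows with shRNA 162 and against 2.53% with shRNA 159. LATS1 read 9.29 and 9.21 in the control clones, 9.61 and 9.64 with shRNA 162, and 9.64 and 9.47 with shRNA 159, where the change of 0.30 did not pass (adjusted p = 0.14). The TAOK1 call was lost without control clone 1 or 2 and that of LATS1 without any 1 of the 4 arrays compared (adjusted p up to 0.089 and 0.17).

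Of 40 upstream regulators and polarity proteins, 6 fell and 1 rose with shRNA 162 (17.5%, against 9.52% of all rows), and 1 rose with shRNA 159 (2.5%, against 2.53%, the share of all rows). RASSF2, a scaffold that binds MST kinases, fell by 1.40 (SE 0.10, adjusted p = 0.00031), from 8.79 and 8.57 to 7.25 and 7.31, while the shRNA 159 clones read 8.74 and 8.57. DLG1, a PDZ protein of the Scribble polarity complex, fell by 0.93 (SE 0.07, adjusted p = 0.00043). AMOT, the founding angiomotin, rose by 0.67 (SE 0.08, adjusted p = 0.0027) and STRN3, a subunit of the STRIPAK phosphatase complex, fell by 0.44 (SE 0.08, adjusted p = 0.012). The related subunit STRN rose by 0.40 with shRNA 159 (SE 0.08, adjusted p = 0.032). The calls of RASSF2, DLG1 and AMOT with shRNA 162 held whichever array was left out. That of STRN3 was lost without any 1 of the 4 arrays compared, and that of STRN without any 1 of the 6.

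Of 25 TEAD factors and nuclear cofactors, 3 rose and 1 fell with shRNA 162 (16%, against 9.52% of all rows), and 1 rose with shRNA 159 (4%, against 2.53%, a share close to that of all rows). TEAD4 rose by 0.44 (SE 0.08, adjusted p = 0.010) in the clones in which TEAD1 fell, reading 9.95 and 9.96 there against 9.47 and 9.55 in the control clones. TEAD2 and TEAD3, named to complete the family, had changes of -0.07 and 0.0008 and did not pass (adjusted p = 0.69 and 1). Also with shRNA 162, JUNB, an AP-1 subunit, rose by 0.41 (SE 0.08, adjusted p = 0.016), SMAD3 rose by 0.38 (SE 0.08, adjusted p = 0.029) and TP73, a p53 relative, fell by 0.59 (SE 0.08, adjusted p = 0.0033). VGLL3, a cofactor that competes with YAP for TEADs, rose by 0.73 with shRNA 159 (SE 0.12, adjusted p = 0.017) and changed by -0.41 with shRNA 162 (adjusted p = 0.071). TP73 kept its call whichever array was left out. TEAD4, JUNB and SMAD3 lost theirs without any 1 of the 4 arrays compared, and VGLL3 without control clone 1 or 2 or shRNA 159 clone 1.

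A list of 36 further genes reported as YAP/TAZ targets in other cells also held genes that rose and genes that fell. With shRNA 162, 5 rose and 6 fell (30.6%, against 9.52% of all rows; median change -0.06). With shRNA 159, 0 rose and 3 fell (8.33%, against 2.53%; median 0.007; limma, 5 higher and 7 lower at an unadjusted p under 0.05). FGF1, a growth factor, fell by 0.93 (SE 0.08, adjusted p = 0.00043) and FSTL1, a secreted glycoprotein, fell by 0.81 (SE 0.07, adjusted p = 0.00077) with shRNA 162. DOCK5, a Rac exchange factor, rose by 0.82 (SE 0.09, adjusted p = 0.002) and MYC rose by 0.59 (SE 0.08, adjusted p = 0.0043) with the same hairpin. These 4 calls held whichever array was left out. CAVIN2, a caveolar protein, fell by 0.60 (SE 0.10, adjusted p = 0.0082), a call lost without control clone 1 or shRNA 162 clone 1.

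IGFBP3, which binds insulin-like growth factors, fell with both hairpins, by 0.45 with shRNA 162 (SE 0.09, adjusted p = 0.015) and by 0.84 with shRNA 159 (SE 0.09, adjusted p = 0.0021). F3, tissue factor, fell by 0.72 with shRNA 159 (SE 0.09, adjusted p = 0.0049), and its change of -0.33 with shRNA 162 did not pass (adjusted p = 0.053). Like NUAK2, both differed more from control with shRNA 159 than with shRNA 162, but in the opposite direction; the hairpins differed by -0.38 for IGFBP3 and -0.39 for F3 (adjusted p = 0.03 for each). THBS1, the matrix protein thrombospondin 1, fell by 0.40 with shRNA 159 (SE 0.08, adjusted p = 0.04). The shRNA 159 calls of IGFBP3 and F3 held whichever array was left out. That of IGFBP3 with shRNA 162 was lost without any 1 of the 4 arrays compared, that of THBS1 without any 1 of the 6, that of the IGFBP3 difference between hairpins without any 1 of the 4 arrays compared, and that of F3 without either shRNA 162 clone or shRNA 159 clone 2.

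Of the 4 other CCN genes, CCN3 fell by 0.51 with shRNA 159 (SE 0.08, adjusted p = 0.016), a call lost without any 1 of the 4 arrays compared. That is 1 of 4 (25%), against 2.53% of all rows. With shRNA 162, 0 of the 4 passed (limma; 1 at an unadjusted p under 0.05). Targets of SRF and its actin-regulated cofactors were set beside the list because CCN1, CCN2 and ANKRD1 also respond to them. This SRF list also holds SRF itself and its cofactor gene MRTFB. With shRNA 162, 7 of 18 fell and 1 rose (44.4%, against 9.52% of all rows; median -0.17), and with shRNA 159 0 of 18 passed (limma; 4 at an unadjusted p under 0.05). The contractile genes ACTG2, CALD1, TAGLN and MYL9 fell by 2.93, 0.73, 0.67 and 0.52, and the focal adhesion protein gene TGFB1I1 by 0.58 (adjusted p from 3e-06 to 0.012). For all 5 the difference between hairpins passed, with shRNA 159 higher, and it held whichever array was left out except for TGFB1I1 without shRNA 162 clone 1. Over the 18 genes, 7 were higher and 1 lower with shRNA 159 than with shRNA 162 (44.4%, against 8.65% of all rows). CCN2, TEAD1, AJUBA and NUAK2 were higher with shRNA 159 than with shRNA 162, but NUAK2 was above control with both hairpins. CCN1 and ANKRD1 did not differ by the test between the hairpins (adjusted p = 0.68 and 0.82). A relation of these genes to the SRF targets was not tested. The calls of ACTG2 and TGFB1I1 with shRNA 162 held whichever array was left out. CALD1 lost its call without either control clone, MYL9 without control clone 1 or shRNA 162 clone 2, and TAGLN without either control clone or shRNA 162 clone 2.

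**Figure D5:**
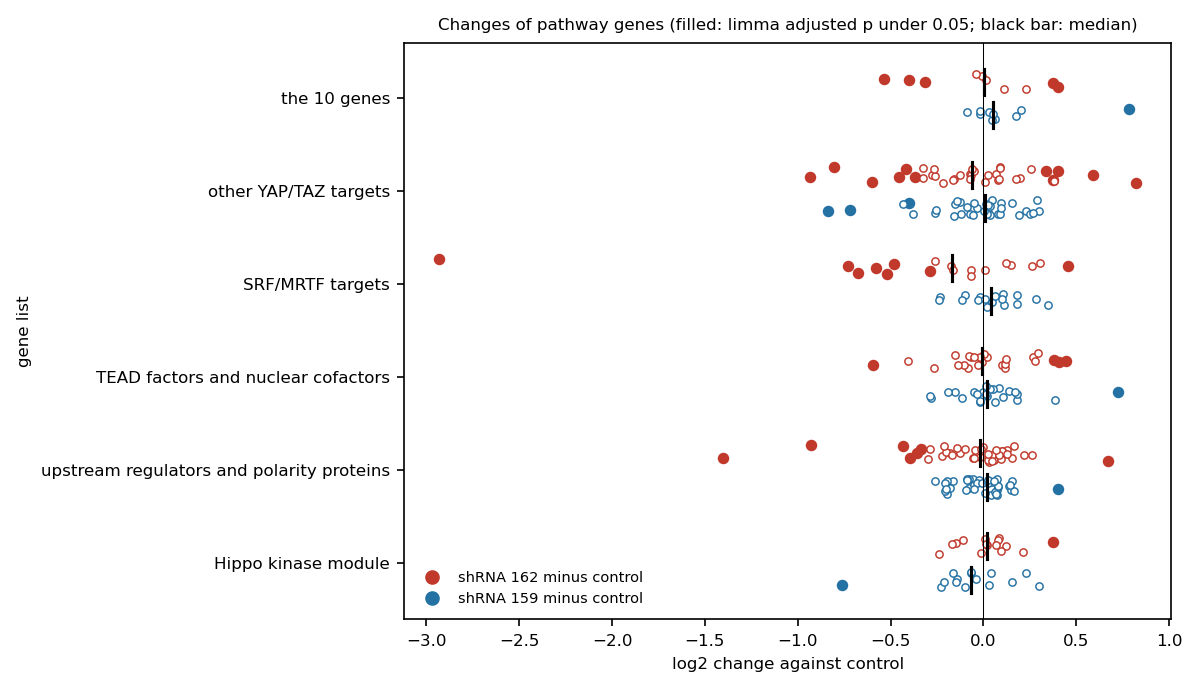
Log2 change against control (horizontal axis) of every measured gene of 6 lists with shRNA 162 and shRNA 159; filled points passed and black bars are medians, and LATS1 and PTPN14 stand in 2 lists each. With shRNA 162 the 10 genes and the other YAP/TAZ targets have called genes on both sides of 0, and 7 of the 8 called SRF/MRTF targets are lower.

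Across the 6 arrays, the rows most like CCN2 among 3121 rows whose signal spanned at least 0.5 were CREB3L1 (Pearson r = 0.998), CTSZ (0.994), VAMP8 (0.994) and MELTF (0.992). Those most like NUAK2 were RCL1 (0.998), NDUFAF7 (0.997), STYXL1 (0.995) and PAPOLG (0.995). Because the arrays form 3 pairs of clones, high values are common: 281 rows exceeded 0.9 with CCN2 and 189 with NUAK2. These values describe the shape over 6 arrays that share their groups. Among the 10 genes, TEAD1 (0.936) and AJUBA (0.886) were most like CCN2, and WWTR1 ran opposite to it (-0.899).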

How the data were processed

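Transcripts were measured on 6 arrays, 2 clones per group. The authors deposited 1 log2 value per probe set and array, made with Affymetrix's Exon Array Computational Tool, per the labels. How that tool corrected background, normalized and summarized probes is not given. The base 2 was inferred from the range of values, 2.29 to 14.65. Settings that compress high or low signals would shrink changes. Arrays give no count depth, so the number of arrays limits precision.

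The values were used without further scaling. With limma 3.58.1 (R 4.3.3), lmFit and eBayes were run with 1 mean for each of 3 groups ( 3 residual and 5.31 prior degrees of freedom) and the script was tested on simulated data. A gene with several rows was read by its brightest; rows annotated to several genes were named for TAX1BP3 alone. From each pathway list up to 5 genes that passed in any comparison (8 for cofactors and further targets), by smallest p, were named. The 10 genes and the lists were chosen with earlier results of these data known, and they are no independent support for results already known. Neighbours and windows came from RefSeq GRCh38.p14. The fit was repeated with dim rows left out, with unnamed rows added, after quantile normalization, with an intensity trend, with clone number as a block, without each array, on the 4 arrays of a comparison, and, for both hairpins together, with the hairpins merged or taken as a random block.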

Additional observations from a re-analysis of the deposited data

Results flagged for a closer look

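The results here were set apart because the effects of the 2 hairpins against the same control clones differed, by limma's test of shRNA 159 minus shRNA 162. TAX1BP3 itself differed, with a signal higher by 0.47 with shRNA 159, a call lost without shRNA 162 clone 1 or with all rows tested. Of the 10 genes, 4 differed, all higher with shRNA 159: TEAD1 by 0.45, CCN2 by 0.44, NUAK2 by 0.38 and AJUBA by 0.38 (log2). NUAK2 was above control with both hairpins; the other 3 were below it with shRNA 162.

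List genes were named by smallest p over comparisons that include this one, so how many of them differed follows from that choice. Between hairpins, 1 of 15 Hippo module genes passed (6.67%), 8 of 40 upstream genes (20%) and 4 of 25 on the cofactor list (16%). Further targets gave 11 of 36 (30.6%), other CCN genes 1 of 4 (25%) and the SRF list 8 of 18 (44.4%), against 8.65% of all rows. Of the named upstream genes, RASSF2 (1.38), DLG1 (0.67), STRN (0.50) and STRN3 (0.39) were higher with shRNA 159, and TAOK1 (-0.84) and AMOT (-0.60) lower. Among cofactors VGLL3 (1.13) and TP73 (0.31) were higher, and JUNB (-0.43) and TEAD4 (-0.38) lower. Among further targets FSTL1 (0.75) and FGF1 (0.67) were higher, and DOCK5 (-0.81), THBS1 (-0.49), F3 (-0.39), IGFBP3 (-0.38) and MYC (-0.33) lower. CCN3 was lower (-0.65). The named SRF targets ACTG2 (3.04), TAGLN (1.02), CALD1 (0.84), MYL9 (0.57) and TGFB1I1 (0.47) were higher with shRNA 159. Of the whole SRF list of 18 genes, 7 passed as higher and 1 as lower. Of the 23 differences among these list genes, 13 passed whichever array was left out; those of TP73 and MYC were lost without any 1 of the 6.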

How the results depend on the processing

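Across the alternatives, the 10 genes kept their side of the threshold in 433 values, lost a call in 56 and gained 1, TEAD1 for TIP-1 shRNA minus control with a variance trend (adjusted p = 0.029); 0 called values changed direction. Of the 56, 38 came from leaving out an array. Some alternatives are the same fit, so these values are not all separate checks. With all rows tested, the number of the 10 genes called was 1 for TIP-1 shRNA minus control (3 in the report), 1 for shRNA 162 minus control (5) and 0 between hairpins (4; limma, 4 at an unadjusted p under 0.05); the cause was not tested. With the 4 shRNA clones as 1 group, or the hairpin as a random block, it was 0 for TIP-1 shRNA minus control. Leaving out each array gave 1 to 2 genes for TIP-1 shRNA minus control, 1 to 5 for shRNA 162, 1 for shRNA 159 and 0 to 4 between hairpins. In the TAX1BP3 check the mean change over both hairpins passed in all 13 alternatives (-1.49 to -1.39). Over all rows, the number called moved from 980 to between 27 and 2265, from 2019 to between 526 and 3482, from 537 to between 111 and 1137, and from 1836 to between 593 and 3022, for both hairpins, shRNA 162, shRNA 159 and the difference between hairpins, so the background shares move with the setting too.

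Clone numbers were not taken to pair the groups. Deviations of same-numbered clones correlated at -0.052 (control and shRNA 162), 0.263 (control and shRNA 159) and -0.028 (shRNA 162 and shRNA 159). In each group clone 1 had a lower array median than clone 2. Whether same-numbered clones shared a batch was not tested. With the replicate block the numbers called were 3, 4, 1 and 4, and AJUBA with shRNA 162 had an adjusted p of 0.053. Quantile normalization gave 2, 5, 1 and 4. For the genes named from the lists, 1105 values kept their side, 178 lost a call and 27 gained one. With 2 clones per group, a call near the threshold can be lost through lower power alone when an array is left out.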
